A study of Homo sapiens with 20 samples.

Results

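The 10 genes described here encode the core of the desmosome: the desmogleins DSG1, DSG2 and DSG3, the desmocollins DSC1, DSC2 and DSC3, the plakophilins PKP1, PKP2 and PKP3, and desmoplakin (DSP). They were chosen by name out of 57500 genes listed in each library, and all 10 were found by their Ensembl identifiers. RNA was sequenced from NTERT cells, a human keratinocyte line immortalized with hTERT, in 4 groups of 5 libraries, WT and GCN2KO cells, each either unwounded or taken after HDW. HDW is high-density wounding, in which pipet tips are drawn across a cell sheet so that many cells border a wound, and RNA was taken 6 h later. GCN2KO cells are a CRISPR-edited pool, not a single clone, in which the eIF2 kinase GCN2 (gene EIF2AK4) was targeted, and WT cells carried a control guide. No further edited pool is labelled, so GCN2 loss and other differences between the pool and WT cells cannot be told apart. The labels give a low-calcium growth medium for both genotypes. The study's methods describe a switch to a medium with raised calcium and serum, which induces differentiation, before wounding. In the HDW method this switch precedes wounding, and the cells are later lysed for mRNA or protein work. The description of the sequenced samples names HDW without repeating the switch. It does not state the switch for the unwounded cells. The authors also state that differentiation can be delayed when GCN2 is lost, but still takes place later. Nothing states whether the 5 samples of a group were grown on separate days, so the p-values measure the spread between these samples, which may be partly technical.

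Desmosomes are spot-like junctions that rivet the keratin filaments of neighbouring keratinocytes together. The desmogleins and desmocollins are transmembrane cadherins that bind each other across the gap between cells. Inside the cell, plakoglobin (JUP) and the plakophilins bind the cadherin tails, and desmoplakin ties this plaque to keratin filaments. In epidermis the cadherins are layered: DSG2, DSG3, DSC2 and DSC3 are typical of the basal side, while DSG1 and DSC1 appear as cells leave the basal layer and differentiate. DSG1 and DSG3 are the targets of the antibodies in the pemphigus diseases, and desmosomes are remodelled when epidermal sheets migrate into a wound.

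The 6 cadherin genes lie next to each other on chromosome 18 within 559644 bases of GRCh38, from 30989365 to 31549008. The desmocollins stand on the minus strand in the order DSC3, DSC2, DSC1, and the desmogleins follow on the plus strand in the order DSG1, DSG4, DSG3, DSG2. PKP1 lies on chromosome 1 (201283452 to 201332993), PKP2 on chromosome 12 (32790745 to 32896798), PKP3 on chromosome 11 (392614 to 404908) and DSP on chromosome 6 (7541338 to 7586714). Because the 2 suprabasal genes and the basal genes share a cluster but not a level in these cells, the 250 bases before the start are shown for a suprabasal and a basal gene of each family, 5′ to 3′ on the gene's own strand, as RefSeq (GRCh38.p14) gives them. Windows of this kind were found for 8 of the 10 members. For the desmogleins, DSG1 at chr18:31317910-31318159 and DSG3 at chr18:31447491-31447740 (both plus strand), the capitals mark the longest run of identical bases that the pair shares:

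DSG1: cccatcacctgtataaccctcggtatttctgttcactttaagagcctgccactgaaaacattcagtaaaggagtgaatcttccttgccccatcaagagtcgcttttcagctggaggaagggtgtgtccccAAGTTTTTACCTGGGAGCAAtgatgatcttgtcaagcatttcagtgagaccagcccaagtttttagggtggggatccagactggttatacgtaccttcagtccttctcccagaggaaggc
DSG3: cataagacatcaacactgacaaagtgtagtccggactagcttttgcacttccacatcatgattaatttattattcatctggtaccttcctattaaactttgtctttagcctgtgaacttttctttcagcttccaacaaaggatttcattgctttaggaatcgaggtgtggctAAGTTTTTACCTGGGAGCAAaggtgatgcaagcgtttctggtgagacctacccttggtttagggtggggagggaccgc

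For the desmocollins, DSC1 at chr18:31162857-31163106 and DSC3 at chr18:31042743-31042992 (both minus strand), the capitals mark CG dinucleotides:

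DSC1: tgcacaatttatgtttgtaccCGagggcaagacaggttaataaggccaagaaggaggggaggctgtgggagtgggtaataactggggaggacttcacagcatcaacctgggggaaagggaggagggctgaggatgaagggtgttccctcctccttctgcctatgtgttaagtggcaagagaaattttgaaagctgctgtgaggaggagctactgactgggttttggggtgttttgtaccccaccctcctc
DSC3: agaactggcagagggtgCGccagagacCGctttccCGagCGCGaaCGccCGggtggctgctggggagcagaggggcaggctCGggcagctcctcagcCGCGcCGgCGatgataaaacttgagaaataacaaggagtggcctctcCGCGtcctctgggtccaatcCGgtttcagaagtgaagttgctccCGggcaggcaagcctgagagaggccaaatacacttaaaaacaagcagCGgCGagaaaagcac

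The DSG1 and DSG3 windows share a run of 20 identical bases, which begins 120 bases before the start of DSG1 and 78 bases before the start of DSG3. Among 35116 RefSeq windows of the same length, only these 2 hold that run. The next longest run shared by 2 members was 11 bases. DSC3 has 18 CG dinucleotides and DSC1 has 1, against a median of 11 over all windows, whereas DSG3 has 4 and DSG1 has 3. CG content therefore separated the suprabasal from the basal gene in the printed desmocollin pair and not in the printed desmoglein pair. The other basal genes had more CG dinucleotides than DSG1 and DSC1, 26 for DSG2 and 12 and 19 in the 2 windows of DSC2. On both strands, the AP-1 motif TGANTCA (6.57% of all windows), the TATA motif TATAAA (10.7%) and the grainyhead motif AACNGGTT (1.49%) were in none of the 8 members' windows. The GC box GGGCGG, held by 42.6% of all windows, was in those of DSG2, DSC2, PKP1 and DSP, with 7 matches before DSP, of which 2 overlap by 1 base, and CCAAT (32.0%) was in that of DSC3. These matches describe letters only.

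The libraries held 14083504 to 34611570 counts, with group medians of 23685751 in WT unwounded and 33981257 to 34209033 in the other groups. The targeted gene EIF2AK4 was at 4355 ± 149 (SD, n = 5) normalized read counts without wounding in WT, against 894 ± 61.8 (SD, n = 5) in GCN2KO, and its log2 difference was -2.28 (SE 0.065, edgeR adjusted p = 4.3e-13) and after HDW -2.27 (SE 0.052, edgeR adjusted p = 3.3e-12). All 6 keratinocyte markers (KRT5, KRT14, TP63, ITGA6, ITGB4, SFN) were detected in every group, with a summed level of 3953 to 5108, in counts per kilobase of exon scaled to library size by TMM, the scale called level here. The summed level was 0.952 to 3.56 for 6 melanocyte markers, 3.26 to 5.74 for 8 fibroblast markers and 0.641 to 1.89 for 6 endothelial and immune markers. TYR and SOX10, which define melanocytes, were at 0 counts, and the melanocyte sum was higher in GCN2KO libraries (2.15 to 3.56) than in WT libraries (0.952 to 1.35), with MITF at a log2 fold change of 1.98 (SE 0.17) in unwounded cells. The fibroblast sum was 4.53 to 5.74 in WT and 3.26 to 4.41 in GCN2KO libraries, and the endothelial and immune sum was 0.641 to 1.27 and 1.22 to 1.89. Their part in the results below was not tested. In bulk RNA, fewer cells of a type and less RNA per cell cannot be told apart.

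These cultures expressed the basal set of desmosomal cadherins, and the suprabasal pair was close to silent. DSG3 was the leading cadherin, with a level of 142 (unwounded) and 132 (HDW) in WT cells, and of 153 (unwounded) and 137 (HDW) in GCN2KO cells. DSC3 followed at 79.5, 69.7, 58.0 and 62.8 and DSG2 at 59.7, 57.1, 59.0 and 54.8 in the same order of groups, whereas DSC2 was lower, at 10.3 to 13.7. DSC1 reached 0.100 to 0.300 and DSG1 no more than 0.018 as group means.

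**Figure D1:**
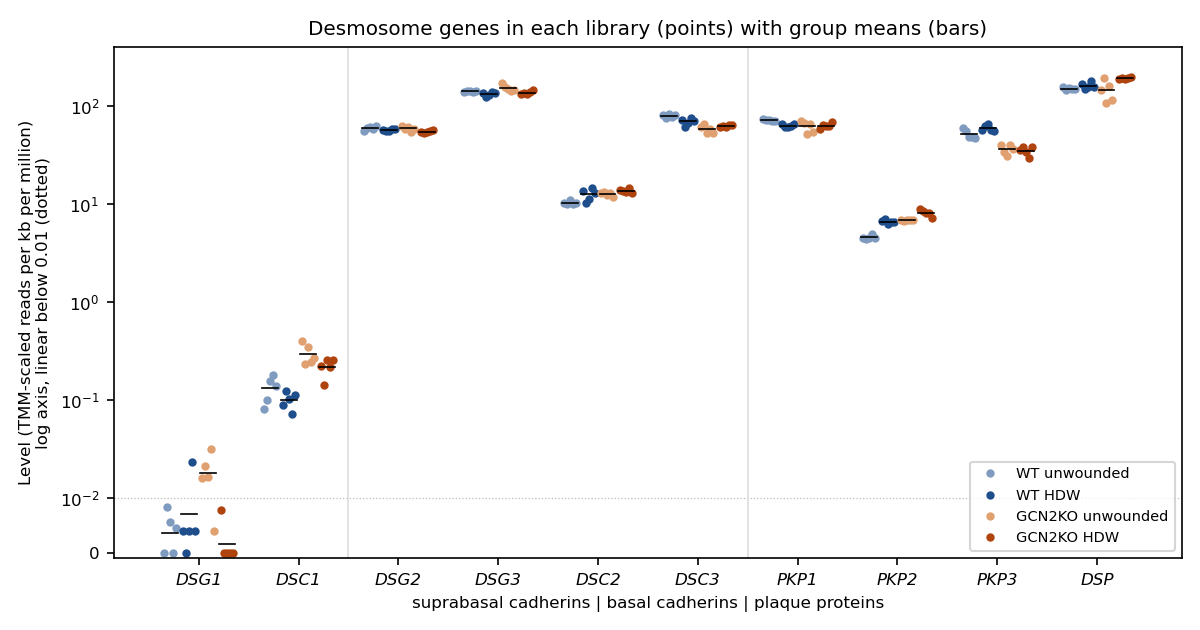
Level of each of the 10 genes in TMM-scaled reads per kilobase of exon and library size (vertical axis, logarithmic, linear below 0.01), with 1 point per library, 5 per group, and a bar at the group mean. DSG1 and DSC1 on the left lie below 1 in every library, while every other member lies above 4.

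DSG1 had 3 counts over the 5 WT unwounded libraries together, 8 over WT HDW, 19 over GCN2KO unwounded and 2 over GCN2KO HDW libraries. These sums give levels of 0.00352 (exact Poisson 95% interval 0.000726 to 0.0103), 0.00658 (0.00284 to 0.0130), 0.0177 (0.0107 to 0.0276) and 0.00180 (0.000218 to 0.00650), and the intervals cover counting error only. Per library, GCN2KO unwounded cells had 1 to 8 counts and GCN2KO HDW cells 0 to 2, with 4 of the 5 GCN2KO HDW libraries at 0. The filter on low counts removed DSG1 from the tests reported here. With no filter it passed as higher in GCN2KO than in WT unwounded cells (edgeR adjusted p = 0.026), as lower after HDW in GCN2KO cells (0.014) and as lower in the interaction of genotype and HDW (0.045). By DESeq2 its difference between unwounded genotypes had an adjusted p of 0.060, and no fold change is given at these counts. It shares 4.65% of its exonic bases with the antisense gene DSG1-AS1 (14 counts in all 20 libraries), and the sources do not state whether reads were counted by strand, so at this depth the origin of its few reads cannot be told apart. DSG3, its neighbour, had 91176 counts in WT unwounded cells, a level 40301 times that of DSG1 (counting interval 13790 to 195424).

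DSC1 was low but countable. Normalized read counts were 9.9, 12.5, 19.3, 22.3 and 17.3 in the WT unwounded and 10.96, 15.1, 12.7, 9.0 and 13.8 in the WT HDW libraries. GCN2KO unwounded libraries had 48.9, 29.1, 43.0, 30.3 and 32.9 and GCN2KO HDW libraries 27.5, 17.6, 31.9, 26.7 and 31.6. The genotypes did not overlap in either condition, while HDW and unwounded libraries of the same genotype overlapped. Between genotypes the log2 value of DSC1 differed by 1.10 (SE 0.23, edgeR adjusted p = 5.3e-04) without a wound and 1.12 (SE 0.21, edgeR adjusted p = 2.9e-04) after HDW. DSC1 overlaps the antisense gene DSCAS over 12.1% of its exonic bases and an unnamed antisense gene over 5.83%. Over all 20 libraries DSCAS held 85 counts, the unnamed gene 26 and DSC1 468. The part of antisense reads in the DSC1 counts was not tested. Even in GCN2KO unwounded cells, DSC3 stood at 190 times the level of DSC1 (counting interval 165 to 221).

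Together, DSG1 and DSC1 made up 0.0467% ± 0.0138 (SD, n = 5) of the summed level of the 6 cadherins in WT unwounded cells and 0.0397% ± 0.0066 (SD, n = 5) after HDW. The GCN2KO shares were 0.112% ± 0.0208 (SD, n = 5) before and 0.0826% ± 0.0173 (SD, n = 5) after HDW. The unwounded genotypes did not overlap, at 0.0284% to 0.0636% in WT and 0.0880% to 0.134% in GCN2KO libraries. The share largely restates DSC1, whose mean level was 0.133 against 0.0037 for DSG1 in WT unwounded cells. In GCN2KO unwounded cells these levels were 0.300 and 0.018. After HDW the WT libraries ran from 0.0333% to 0.0491% and the GCN2KO libraries from 0.0541% to 0.0984%. Other differentiation markers did not move as a block: of 7 tested in unwounded cells, 2 were higher and 4 lower in GCN2KO, against 33.4% and 33.1% of all genes. IVL (involucrin, an early cornified envelope protein) was higher by 1.83 (SE 0.13) on the log2 scale, whereas CASP14 (caspase-14, an enzyme of cornifying cells) was lower by a log2 fold change of -1.66 (SE 0.17) and CALML5, a calmodulin-like protein of differentiating keratinocytes, by -1.13 (SE 0.20). Of the suprabasal keratin pair, KRT1 had 6 to 39 counts per library and was lower in GCN2KO unwounded cells at -1.06 (SE 0.26, edgeR adjusted p = 0.0018), whereas KRT10 had group mean levels of 17.0 to 23.6 and did not pass there, at 0.23 (SE 0.13). LORICRIN had 0 to 3 counts per library.

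By level per exonic length, desmoplakin or DSG3 held the first place across all members. Exonic length exceeds coding length unequally, with 12501 against 2736 bases for DSC2 and 5579 against 2997 for DSG3. The order below is given on exonic length only and may differ on another length. In WT unwounded cells the order of levels was DSP (150), DSG3 (142), DSC3 (79.5), PKP1 (71.9), DSG2 (59.7), PKP3 (52.0), DSC2 (10.3), PKP2 (4.59), DSC1 and DSG1, and only DSG2 and PKP3 had overlapping libraries among neighbours. In WT HDW cells DSC3, PKP1, PKP3 and DSG2 formed a run of overlapping neighbours. In GCN2KO unwounded cells DSG3 and DSP overlapped, and so did PKP1, DSG2 and DSC3, while PKP3 (36.5) lay clear below them. In GCN2KO HDW cells only PKP1 and DSC3 overlapped. DSP ranked between 162 and 256 by level among 34059 genes with any count, DSG3 between 243 and 280, and DSC1 between 14210 and 17321.

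In unwounded cells, GCN2KO and WT cells were compared at rest. DSC1, DSC2 and PKP2 were higher and DSC3, PKP1 and PKP3 were lower in GCN2KO, 3 and 3 of the 9 members tested. Over all 15348 genes tested, 33.4% were higher and 33.1% lower, so neither share stands apart from the background. DSC1 was the only DE gene among the members (adjusted p of at most 0.05 and a log2 fold change of 1 or more, up or down), against 16.4% of all genes. Without WT unwounded replicate 1 (0.99) or GCN2KO unwounded replicate 1 (0.98), DSC1 still passed but its log2 fold change was under 1. The libraries of the 2 groups did not overlap for 5 members (DSC1, DSC2, DSC3, PKP2, PKP3), against 53.3% of all genes. The median log2 fold change of the 9 members was -0.01, and that of all genes was 0.00.

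**Figure D2:**
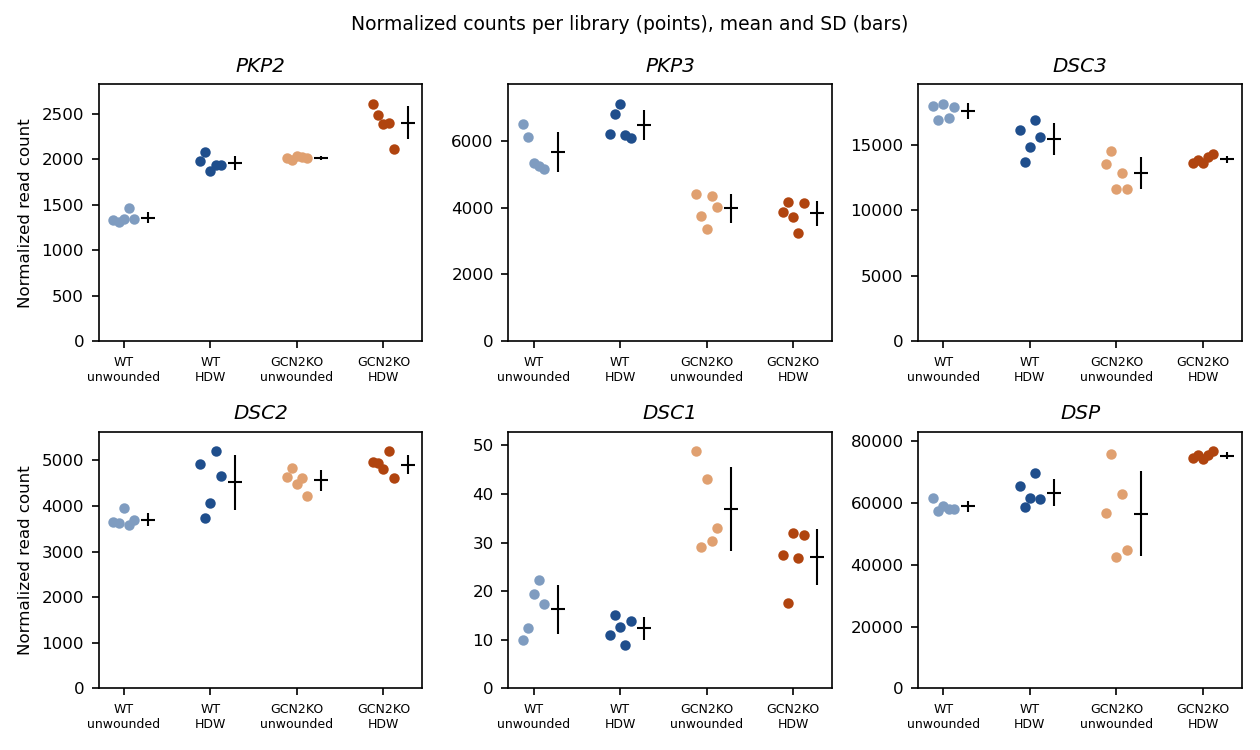
Normalized read counts (vertical axes, from 0) of PKP2, PKP3, DSC3, DSC2, DSC1 and DSP in each of the 20 libraries (points), with the mean and SD of the 5 libraries of each group beside them. PKP3 forms separate ranges by genotype, 5156 to 7126 in WT and 3235 to 4420 in GCN2KO libraries, and DSP spreads widely in GCN2KO unwounded cells only.

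PKP2 is the plakophilin of heart and simple epithelia and a minor one in epidermis. It had 1329, 1315, 1342, 1468 and 1340 normalized read counts in WT unwounded and 2015, 1990, 2038, 2031 and 2015 in GCN2KO unwounded libraries. The ranges were far apart, and the GCN2KO libraries lay close together, between 1990 and 2038. The log2 fold change was 0.57 (SE 0.056, edgeR adjusted p = 1.8e-07).

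PKP3, which binds most desmosomal cadherins and is present in all living epidermal layers, went the other way. WT unwounded libraries had 6498, 6124, 5327, 5245 and 5156 and GCN2KO unwounded libraries 4420, 3746, 3373, 4361 and 4025 normalized read counts. Every GCN2KO library was below every WT library, and the log2 fold change was -0.50 (SE 0.089, edgeR adjusted p = 1.1e-04). PKP1, the plakophilin of the upper layers, was lower at -0.21 (SE 0.086, edgeR adjusted p = 0.039) with overlapping libraries, 12623 to 13138 in WT and 9209 to 12630 in GCN2KO. That call was lost in 7 of 10 fits that left out 1 library each (any WT unwounded replicate, or GCN2KO unwounded replicate 3 or 5, with edgeR adjusted p-values of 0.054 to 0.097), and it was -0.07 (SE 0.060, edgeR adjusted p = 0.34) without the 3 GCN2KO unwounded libraries described with DSP.

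The 2 main desmocollins moved in opposite directions. DSC3 had 17987, 16877, 18161, 17028 and 17928 normalized read counts in WT unwounded and 13533, 14522, 11642, 12824 and 11645 in GCN2KO unwounded libraries. DSC2 had 3649, 3621, 3948, 3579 and 3699 in WT unwounded and 4637, 4835, 4492, 4620 and 4226 in GCN2KO unwounded libraries. In both genes the groups did not overlap, with DSC3 lower by a log2 difference of -0.45 (SE 0.074, edgeR adjusted p = 5.0e-05) and DSC2 higher at 0.31 (SE 0.060, edgeR adjusted p = 2.8e-04). The desmogleins of the basal type did not pass, at -0.01 (SE 0.063) for DSG2 and 0.12 (SE 0.067) for DSG3, with edgeR adjusted p-values of 0.88 and 0.14.

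**Figure D3:**
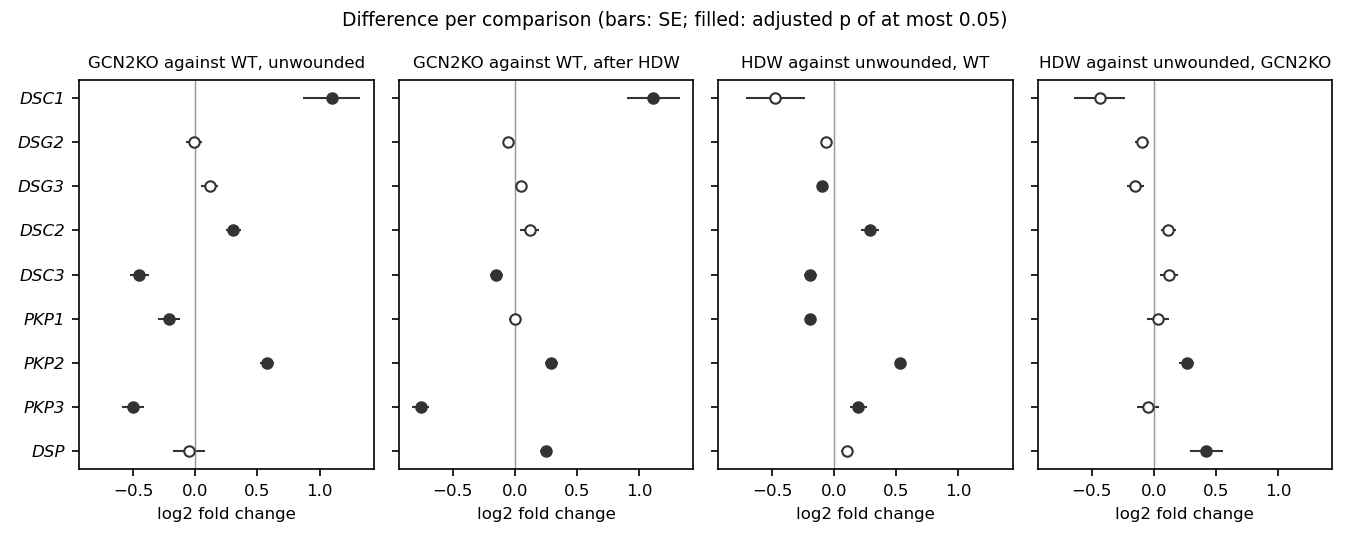
Log2 fold change (horizontal axes) of the 9 tested members in 4 comparisons, GCN2KO against WT in unwounded cells and after HDW, and HDW against unwounded in WT and in GCN2KO cells. Bars are 1 SE and filled points passed at an adjusted p of at most 0.05, so that DSC1 stands near 1.1 in both genotype comparisons and PKP2 is filled in all 4.

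After HDW, the same comparison asks how wounded cells of the 2 genotypes differ. DSC1, PKP2 and DSP were higher and DSC3 and PKP3 lower in GCN2KO, so 3 and 2 of 9 members passed, against 35.9% and 35.8% of 15855 genes. DSC1 was again the only DE gene (14.9% of all genes), and DSC1, PKP2, PKP3 and DSP had libraries that did not overlap between the groups (57.2% of all genes). The median log2 fold change of the 9 members was 0.05, and that of all genes was 0.00.

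PKP3 showed the larger separation of the plakophilins after HDW. It had 6226, 6814, 7126, 6189 and 6082 normalized read counts in WT HDW and 3865, 4179, 3714, 3235 and 4141 in GCN2KO HDW libraries, which gave a log2 value of -0.76 (SE 0.068, edgeR adjusted p = 2.1e-07). PKP2 had 1983, 2080, 1876, 1941 and 1934 against 2616, 2491, 2394, 2404 and 2116 normalized read counts, and its log2 fold change was 0.29 (SE 0.053, edgeR adjusted p = 1.9e-04). PKP1 was at 0.00 (SE 0.045).

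DSP had 65509, 58632, 61491, 69753 and 61210 normalized read counts in WT HDW and 74674, 75423, 74187, 75431 and 76867 in GCN2KO HDW libraries. The GCN2KO HDW libraries lay close together and above all WT HDW libraries (log2 fold change 0.25, SE 0.049, edgeR adjusted p = 3.5e-04). DSC3 was lower at -0.15 (SE 0.052, edgeR adjusted p = 0.017) with overlapping libraries, and DSC2 did not pass at 0.12 (SE 0.077, edgeR adjusted p = 0.18). DSG2 (-0.06, SE 0.036) and DSG3 (0.05, SE 0.045) did not pass either.

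The response to HDW was then compared within each genotype. These comparisons share libraries with the ones above, so their values are set side by side and are not independent of them. In WT cells, PKP2, DSC2 and PKP3 were higher and PKP1, DSC3 and DSG3 lower after HDW, 3 and 3 of 9 members, against 26.1% and 25.2% of 15348 genes. No member was a DE gene (4.17% of all genes), and the libraries of PKP1 and PKP2 did not overlap between the groups (36.9% of all genes). The median log2 fold change was -0.07 over the 9 members and 0.00 over all genes.

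PKP2 rose most among the members in wounded WT cells, from a mean normalized read count of 1359 ± 61.9 (SD, n = 5) up to 1963 ± 75.9 (SD, n = 5), or a log2 rise of 0.53 (SE 0.039, edgeR adjusted p = 3.7e-08). PKP1 fell from a mean of 12841 ± 221 (SD, n = 5) to one of 11234 ± 367 (SD, n = 5), at -0.20 (SE 0.032, edgeR adjusted p = 1.2e-04). DSC2 was higher at 0.28 (SE 0.072, edgeR adjusted p = 0.0040) and DSC3 lower at -0.19 (SE 0.049, edgeR adjusted p = 0.0041), both with overlapping libraries and both passing in all 10 fits that left out 1 library. The small shifts of PKP3 (0.19, SE 0.067, edgeR adjusted p = 0.024) and DSG3 (-0.10, SE 0.037, edgeR adjusted p = 0.031) passed in 6 and 5 of those 10 fits. PKP3 was lost without WT unwounded replicate 3, 4 or 5 or WT HDW replicate 3 (edgeR adjusted p of 0.061 to 0.074), and DSG3 without WT unwounded replicate 2, 3 or 5 or WT HDW replicate 2 or 3 (0.055 to 0.087). PKP3 was also lost with library size alone (edgeR adjusted p = 0.070) and with all 20 libraries in 1 fit (0.062), and DSG3 with no filter (0.11) and with all 20 libraries (0.16). DSG2 passed with library size alone (edgeR adjusted p = 0.013) and DSP with no filter (0.025). Without WT unwounded replicate 1, DSG2 (-0.09) and DSP (0.12) also passed, and DSP (0.13) also without WT HDW replicate 2. DSC1 did not pass, at -0.48 (SE 0.24, edgeR adjusted p = 0.11).

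In GCN2KO cells, 2 of 9 members (PKP2 and DSP) were higher after HDW, against 11.9% of 15791 genes. By edgeR no member was lower (10.8% of all genes), although DSG3 and DSC1 were lower at an unadjusted p of 0.045 and 0.049. DESeq2 also called 0 members lower, with no adjusted p for DSG1 in this comparison. None was a DE gene (0.671% of all genes), and only PKP2 had libraries that did not overlap (15.2% of all genes). PKP2 went from a mean of 2018 ± 18.7 (SD, n = 5) to one of 2404 ± 184 (SD, n = 5), at 0.26 (SE 0.063, edgeR adjusted p = 0.011), and at 0.26 with an adjusted p of 0.082 by edgeR without the 3 GCN2KO unwounded libraries described below. The median log2 fold change was 0.03 over the 9 members and 0.00 over all genes.

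The test of the difference between the 2 HDW responses, fitted on all 20 libraries, passed for 1 member in each direction, DSC3 and PKP2, against 11.2% higher and 12.5% lower of 16536 genes, with no DE gene among the members (3.31% of all genes). The response of DSC3 was 0.30 (SE 0.088, edgeR adjusted p = 0.014) higher in GCN2KO than in WT cells on the log2 scale: -0.19 in WT and 0.12 (not passed) in GCN2KO. The response of PKP2 was smaller in GCN2KO by -0.28 (SE 0.073, edgeR adjusted p = 0.0080), 0.26 against 0.53. Both passed in all 20 fits that left out 1 library. DSC3 also varied with the long-gene index described below with DSP, and the part of that index in its response was not tested. For DSP (0.31, SE 0.15), PKP3 (-0.25, SE 0.12) and PKP1 (0.22, SE 0.099) the edgeR adjusted p was 0.13, 0.12 and 0.12. With 1 library left out, DSP passed without GCN2KO unwounded replicate 2 (0.44), PKP1 without GCN2KO unwounded replicate 1 (0.27) and DSC2 without WT HDW replicate 2 (-0.25).

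**Figure D4:**
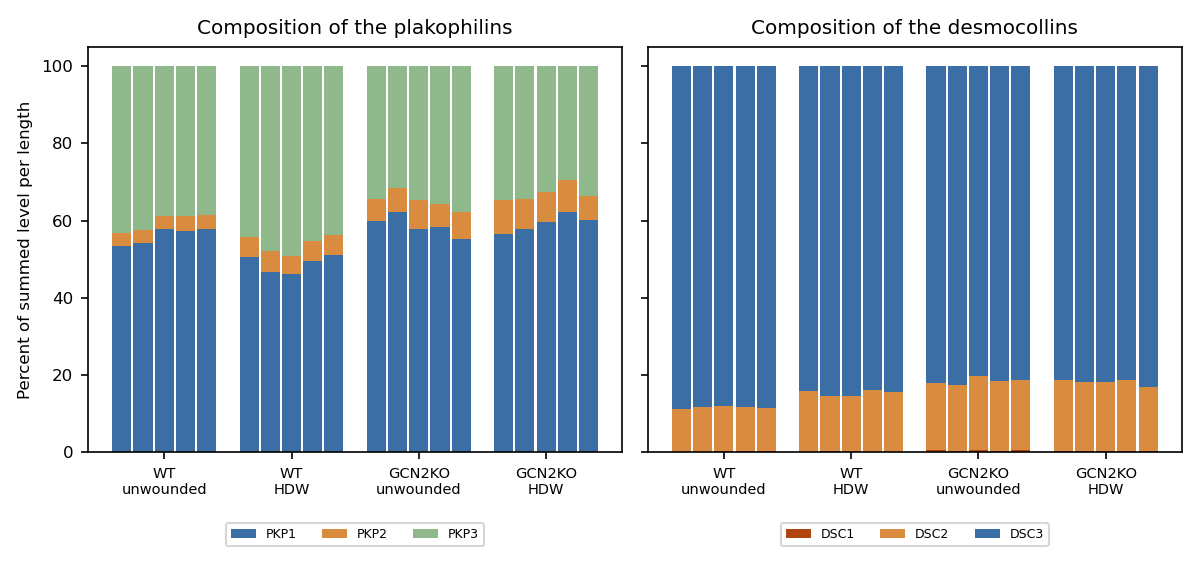
Percent of the summed level per length of the 3 plakophilins (left) and the 3 desmocollins (right) that each gene takes, with 1 stacked bar per library and 5 bars per group. The PKP3 share is 43.8% to 49.1% in WT HDW and 29.6% to 34.7% in GCN2KO HDW libraries, and the DSC1 share is too small to see.

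Set against its own family, each gene's share of the level shows these shifts in another form. The shares are given on exonic length only, and their size depends on that choice. PKP2 has 10288 exonic against 2835 coding bases, PKP3 3795 against 2679 and DSC2 12501 against 2736. In WT cells PKP2 made up 3.59% ± 0.289 (SD, n = 5) of the plakophilin level unwounded and 5.15% ± 0.233 (SD, n = 5) after HDW, and in GCN2KO cells 6.55% ± 0.782 (SD, n = 5) and 7.69% ± 0.869 (SD, n = 5). PKP3 took 40.4%, 46.1%, 34.8% and 33.0% in that order of groups, and PKP1 took 56.1%, 48.8%, 58.7% and 59.3%. WT HDW cells were thus the group with the highest PKP3 and the lowest PKP1 share. Among the desmocollins, DSC2 took 11.4% ± 0.282 (SD, n = 5) unwounded and 15.2% ± 0.759 (SD, n = 5) after HDW in WT cells, 17.9% ± 0.828 (SD, n = 5) and 17.8% ± 0.752 (SD, n = 5) in GCN2KO cells, and DSC3 nearly all of the rest. DSG3 held 69.8% to 72.1% of the desmoglein level in every group.

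DSP was uneven among GCN2KO unwounded libraries, with an SD of 24.1% of the mean there and of 1.35% to 6.88% in the other groups. GCN2KO unwounded libraries had 56651, 75806, 42466, 62853 and 44909 normalized read counts of DSP, a range that spans the 57388 to 61741 of WT unwounded libraries, and the log2 fold change between these groups was -0.05 (SE 0.13, edgeR adjusted p = 0.73). In GCN2KO cells DSP was higher after HDW at 0.42 (SE 0.13, edgeR adjusted p = 0.033), a call that was lost in 7 of 10 fits that left out 1 library (without GCN2KO unwounded replicate 1, 3 or 5 or GCN2KO HDW replicate 1, 2, 3 or 4, with edgeR adjusted p-values of 0.056 to 0.082). DSP has the longest coding sequence of the members (8676 bases), so each library's long genes were compared with its shorter ones. A long-gene index was computed as the median log2 deviation from the group mean over 317 genes with at least 6000 coding bases, minus that over 2542 genes with 600 to 1200 coding bases, the members left out. In GCN2KO unwounded replicates 1 to 5 the index was 0.042, 0.433, -0.420, 0.182 and -0.251, and the deviation of DSP was 0.037, 0.467, -0.429, 0.208 and -0.283. In the other groups the index stayed between -0.071 and 0.130. These 5 libraries stood in the same order by index and by DSP. Over the 20 libraries, Pearson's r with the index was 0.97 for DSP. It was 0.82 for PKP1 (2241 coding bases), 0.78 for DSC3 (2712) and 0.77 for JUP (2235). The other members with enough counts were DSG3 at 0.42 (2997), DSC2 at 0.33 (2736), PKP3 at 0.33 (2679), PKP2 at -0.05 (2835) and DSG2 at -0.08 (3421). Apart from DSP, r did not rise with coding length, and the part of coding length was not tested.

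**Figure D5:**
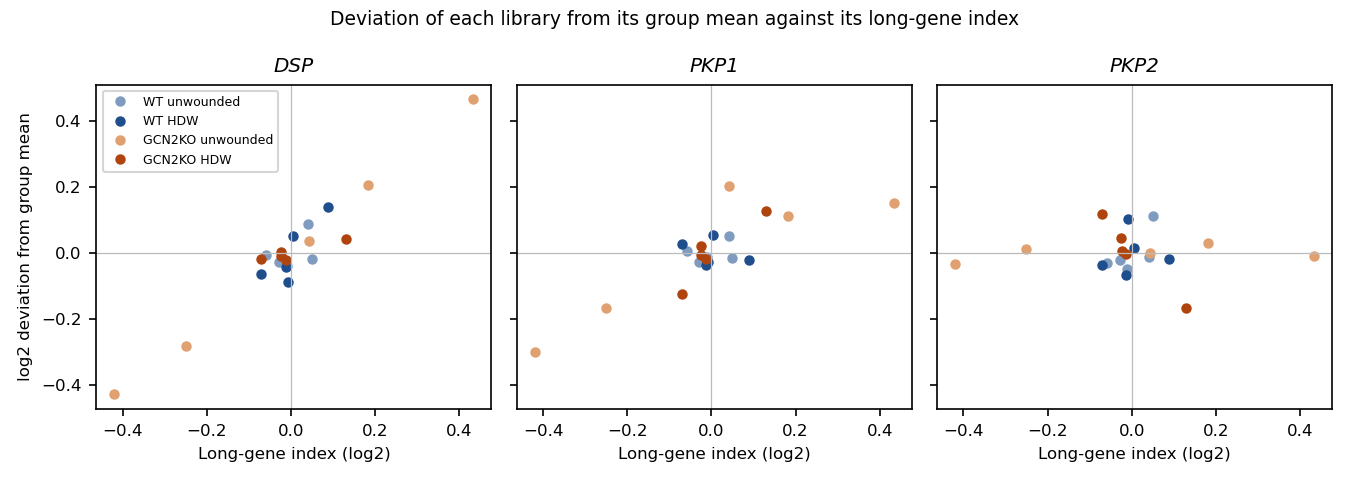
Log2 deviation of DSP, PKP1 and PKP2 from the group mean (vertical axes) against the long-gene index of the library (log2, horizontal axes), with 1 point for each of the 20 libraries. DSP runs along the diagonal from -0.429 to 0.467 in GCN2KO unwounded libraries, PKP1 shows a smaller slope, and PKP2 stays between -0.034 and 0.031 in those 5 libraries.

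Measured against the mean of all 20 libraries, the index averaged 0.021 unwounded and 0.120 after HDW in WT cells, and -0.281 unwounded and 0.128 after HDW in GCN2KO cells, so it also differed between the groups that are compared. Its part in the results of DSP, DSC3, PKP1 and the other members was not tested. GCN2KO unwounded replicates 2, 3 and 5 had an index more than 0.2 from the group mean. Without them (a choice made after seeing the data), only replicates 1 and 4 of that group remained. DSP was then higher after HDW in GCN2KO cells at 0.34 (SE 0.069, edgeR adjusted p = 0.023). Since DSP followed the index (Pearson's r 0.97 over 20 libraries), that choice also removed its most deviating libraries. The fit is therefore no check on the DSP call. In GCN2KO unwounded libraries, PKP1 deviated by -0.301 to 0.205 and DSC3 by -0.185 to 0.194, while PKP2 deviated by no more than 0.034. DSC3 in GCN2KO against WT unwounded cells was -0.41 (SE 0.064, edgeR adjusted p = 1.1e-04) without these 3 libraries, PKP3 was -0.36 (SE 0.092, edgeR adjusted p = 0.0045) and the interaction of DSC3 was 0.25 (SE 0.081, edgeR adjusted p = 0.038). Replicates 2, 3 and 5 were also the libraries of that group in which DSC3 deviated most (0.194, -0.185 and -0.119). The fits without them are therefore no check on the DSC3 calls either.

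Plakoglobin, encoded by JUP, which links the cadherins to desmoplakin, had a level of 215 unwounded and 238 after HDW in WT cells, and 200 and 241 in GCN2KO cells, above DSP in every group. It did not pass between genotypes (-0.10, SE 0.080 unwounded and 0.02, SE 0.038 after HDW). It rose after HDW in WT cells at 0.15 (SE 0.031, edgeR adjusted p = 0.0012) and in GCN2KO cells at 0.27 (SE 0.080, edgeR adjusted p = 0.026). JUP deviated by -0.236 to 0.156 from the group mean among GCN2KO unwounded libraries, and the part of the long-gene index in its HDW response was not tested. DSG4, a desmoglein of hair and upper epidermis that lies between DSG1 and DSG3, had 5 to 13 counts per library unwounded and 16 to 28 after HDW in WT cells, but 0 to 3 and 0 to 4 in GCN2KO cells. Its log2 fold change was -3.55 (SE 0.42, edgeR adjusted p = 3.8e-06) in GCN2KO against WT after HDW and 0.91 (SE 0.31, edgeR adjusted p = 0.023) for HDW in WT cells. After HDW DSC1 was thus higher and DSG4 lower in GCN2KO than in WT cells. Of 8 linked genes (JUP, DSG4, PERP, PKP4, CDSN, KAZN, PPL, EVPL), 1 of 6 tested was higher and 2 lower in GCN2KO unwounded cells, and 1 of 7 tested was higher and 4 lower after HDW. Over all genes these shares were 33.4% and 33.1% in unwounded cells and 35.9% and 35.8% after HDW. The antisense genes were scarce: DSG1-AS1 had 0 to 3, DSG2-AS1 4 to 16 and DSCAS 0 to 9 counts per library, and DSP-AS1 had 835 counts over all 20 libraries on 0.595% of the exonic bases of DSP.

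Genes of other junctions and of desmosome control are given for comparison. Of 10 adherens junction genes, 4 were higher and 4 lower in GCN2KO unwounded cells and 5 and 5 after HDW, with CDH3 (P-cadherin, of basal keratinocytes) at -1.12 (SE 0.079) and -1.17 (SE 0.046), and NECTIN4, a nectin adhesion receptor, at 1.02 (SE 0.045) after HDW. Of 11 tight junction genes tested, 6 were higher and 4 lower unwounded and 7 and 3 after HDW, with OCLN (occludin) at 1.47 (SE 0.084) unwounded, and the scaffold genes TJP3 at -1.30 (SE 0.13) and CGN (cingulin) at -1.16 (SE 0.12). Of 6 gap junction genes, 3 were higher and 3 lower unwounded, and 4 were lower after HDW, with GJA1 (connexin 43) at -1.48 (SE 0.076) unwounded and GJB6 (connexin 30) at -1.49 (SE 0.099) after HDW. Of the keratins that desmosomes anchor, 1 of 5 tested was higher and 3 lower unwounded, with KRT15, a basal keratin, at -1.88 (SE 0.13). Of 15 tested genes that control or cleave desmosomal proteins, 9 were higher and 6 lower unwounded and 9 and 3 after HDW, among them KLK5, a kallikrein that cleaves DSG1 and corneodesmosin in the stratum corneum, at 3.90 (SE 0.23) unwounded and 3.30 (SE 0.21) after HDW. GRHL1, a grainyhead factor known to regulate DSG1, was higher at 1.24 (SE 0.100) after HDW. All of these passed at an edgeR adjusted p of at most 0.05. Their median log2 fold change in unwounded cells was 0.01 for adherens, 0.43 for tight and -0.14 for gap junction genes, and 0.24 for the control genes, against 0.00 for all genes. After HDW in WT cells, 2 adherens junction genes were higher and 3 lower, 5 and 4 tight junction genes, 4 and 0 gap junction genes, and 6 and 3 of 14 tested control genes. In GCN2KO cells these counts were 3 and 0, 5 and 2, 1 and 0, and 6 and 0 of 15. Over all genes tested, 33.4% were higher and 33.1% lower in GCN2KO than in WT unwounded cells, and 35.9% and 35.8% after HDW. For HDW against unwounded cells these shares were 26.1% and 25.2% in WT and 11.9% and 10.8% in GCN2KO cells. No list was tested against these shares.

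The genes whose depth-scaled log2 counts followed a member most closely over the 20 libraries are a description, since the libraries share groups and depth. PKP3 was nearest to AKT1S1 and TGFB1 (Pearson's r 0.98 with each) and PKP2 to TRIB1 and DDAH1 (0.97 with each). DSC3 was nearest to SMAD3 (0.97) and SASH1 (0.96), and DSC2 to LMO7 (0.97) and MAGI3 (0.91). DSP was nearest to AKAP13 and MED13 (0.98 with each), and PKP1 to FOXK2 and MTSS2 (0.91 with each). DSC1 was nearest to GNG4 and SRP14-DT (0.93 with each), DSG2 to VTA1 (0.90) and TIGD2 (0.88), and DSG3 to ZNF16 and ALDH3B2 (0.88 with each).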

How the data were processed

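The authors trimmed reads with Trimmomatic, aligned them to GRCh38 with STAR and counted them on genes with featureCounts, and deposited 1 file of raw gene counts for each library. The annotation release, strandedness and the handling of overlapping genes are not given in the sources used here, so overlapping antisense genes are uncertain. Of 57500 Ensembl identifiers, 56410 matched GENCODE release 44, which gave symbols, positions and lengths. Groups were compared with edgeR 4.0.16 (glmQLFit, glmQLFTest, R 4.3.3) with TMM, filterByExpr (minimum count 10, minimum total 15) and Benjamini-Hochberg adjustment over all genes tested, 10 libraries per comparison and 20 for the interaction. The SE is the log2 fold change divided by the square root of F. Normalized read counts are scaled by TMM over all 20 libraries. A member passed at an adjusted p of at most 0.05. Replicate numbers were not used as pairs in these tests (closing section), and neither pairing nor a batch is labelled. Alternatives were DESeq2 1.42.0, its size factors, unscaled library size, a filter at a mean count of 50 or none at all, thinned counts, all 20 libraries in 1 fit, the replicate block, and each library left out. Coding length from GENCODE replaced protein length, since no protein table was used here. On simulated data, 70 of 100 genes changed by 0.4 (log2) were called in GCN2KO against WT unwounded cells and 32 of 100 in the interaction test. The simulation gave all genes a common dispersion and changed only well-counted genes. It held no long-gene index, so it covers neither DSC1 nor the uneven GCN2KO unwounded libraries. Figures used matplotlib. The members and lists were chosen with earlier results of these data known. Named genes are the members, EIF2AK4, JUP, DSG4, overlapping antisense genes, at most 3 DE genes per list and comparison, and 2 correlated genes per member.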

Additional observations from a re-analysis of the deposited data

Results flagged for a closer look

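PKP2 in WT unwounded replicate 4 stood apart from its group, with 1468 normalized read counts against 1315 to 1342 in the other 4 libraries. Of 36 groups of 5 examined this way over the members, about 1.8 would be marked by chance. All GCN2KO libraries and all WT HDW libraries still had more PKP2 than this library. The response of DSC3 to HDW differed between genotypes by the interaction test, at 0.30 (SE 0.088, edgeR adjusted p = 0.014) on the log2 scale, GCN2KO minus WT. The response of PKP2 differed in the other direction, at -0.28 (SE 0.073, edgeR adjusted p = 0.0080). Over the 20 libraries, Pearson's r with the long-gene index was 0.78 for DSC3 and -0.05 for PKP2. The part of that index in these differences was not tested.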

How the results depend on the processing

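Of 910 recomputed log2 fold changes of members, 839 kept their direction and their side of the threshold, 31 no longer passed, 10 passed anew and 30 turned sign, and none of those 30 had passed. PKP1 in GCN2KO against WT unwounded cells missed the threshold with DESeq2 (adjusted p = 0.055), with thinned counts (0.050) and in 7 of 10 fits with a library left out. HDW in GCN2KO cells raised 1 to 2 members when 1 library was left out and 1 without the 3 libraries of outlying long-gene index. It lowered 1 with no filter (DSG1) or with all 20 libraries in 1 fit (DSG3, edgeR adjusted p = 0.026). For DSG1 only the fit with no filter gave an adjusted p here, since DESeq2 gave one only between genotypes. The interaction was lower for 2 members with no filter (PKP2 and DSG1) or without those 3 libraries (PKP2 and PKP3, the latter at -0.41, edgeR adjusted p = 0.022). It was higher for 1 to 2 and lower for 1 to 2 members when 1 library was left out, DSP passing at 0.44 (edgeR adjusted p = 0.0068) without GCN2KO unwounded replicate 2. With coding length in place of exon length, the suprabasal share was 0.0309% unwounded and 0.0266% after HDW in WT cells, and 0.0764% and 0.0540% in GCN2KO cells. Left out 1 library at a time, it was 0.0425% to 0.0513%, 0.0374% to 0.0413%, 0.106% to 0.118% and 0.0786% to 0.0897% in that order.

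In GCN2KO against WT unwounded cells DSG2 was -0.042 to 0.018 and DSP -0.186 to 0.036 with 1 library left out, and DSP 0.032 without the 3 libraries. After HDW, PKP1 was 0.00036 with DESeq2 size factors, 0.032 with library size alone, 0.0076 with a mean of at least 50 counts, 0.0080 with thinned counts and -0.030 to 0.028 with 1 library left out. For HDW in GCN2KO cells, PKP1 was -0.036 to 0.085 and PKP3 -0.112 to 0.0050 with 1 library left out, and PKP1 was -0.108 without the 3 libraries. In the interaction, DSG2 was 0.023 and DSG3 0.0059 with library size alone, and DSC1 was -0.376 (SE 0.44) with thinned counts, -0.067 without the 3 libraries and -0.126 to 0.157 with 1 library left out. The cause was not tested. DSC1 had no value with a mean of at least 50 counts, nor with thinned counts in 3 of the 5 comparisons. Same-numbered libraries deviated together by a mean correlation of -0.092 to 0.036, with single values from -0.28 to 0.11. The labels state no pairing, and a low correlation cannot exclude one. The replicate block changed no call of a member (PKP2 at 0.57 and DSC3 at -0.46 in GCN2KO against WT unwounded cells). Depth limits DSG1, with at most 8 counts in a library.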
